A study of Mus musculus with 8 samples.

Results

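LINEs (long interspersed nuclear elements) are retrotransposons that copy themselves through RNA, and their remains are scattered through introns and the space between genes. The 3754 regions described here are the LINE regions of the autosomes (chromosomes 1 to 19) that lie more than 1000 bp from the nearest transcription start. They were picked by that distance and by the repeat annotation at each region's centre, from a table of 129304 accessible regions of 800 bp, of which 98640 were distal and autosomal. The rule itself uses no H3K27ac value. H3K27ac, an acetyl group on a histone H3 lysine that marks enhancers and promoters in use, was measured by ChIP-seq, the sequencing of chromatin pulled down with an antibody.

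The nuclei came from brains of C57BL/6 mice aged 2 years, either wild type (WT) or GrnKO, the labels' name for mice without Grn, the gene of the lysosomal protein progranulin; the labels name no allele or promoter for GrnKO. Nuclei were sorted as positive for PU.1, a transcription factor of myeloid cells, and negative for OLIG2 and NEUN, which mark oligodendrocyte lineage cells and neurons. Each replicate pooled nuclei of 2 mice. Each genotype had 2 replicates, each with an H3K27ac library and an input library of sonicated chromatin without immunoprecipitation. In such sorted bulk nuclei, more cells of a type and more acetylation per cell cannot be told apart.

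A small group of young L1 copies, among those named L1Md in the mouse, can still move, while most L1 copies and all copies of L2 and CR1 (elements named L3) are old, broken fragments. Cells silence LINEs with DNA methylation and repressive histone marks, and some old fragments have become enhancers, which carry H3K27ac when active. The annotation placed 3016 of the 3754 regions in L1, 600 in L2, 121 in CR1, 15 in RTE-X and 2 in RTE-BovB, under 130 element names. By name, the L1 regions were mostly old: 1476 were L1M or HAL1 elements of early mammals, 1223 were rodent Lx or L1VL elements, 284 were L1_Mus, L1_Mur or L1_Rod elements, and 29 were L1Md. Another 4 had other L1 names. Introns held 1974 of the regions and intergenic sequence 1780, and 1204 (32.1%) shared bases with another region of the table.

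Sequence could be shown for the 13 regions that contain an annotated RefSeq start window, 300 bases around a transcript start (GRCm38.p6, the mm10 assembly); the table paired these regions with other starts. They were picked after values were seen. Of the 13, 10 were tested, 0 rose and 1 fell, beside 6.8% and 2.92% of all tested regions. Shown are windows of that region and 3 others, 1 for each of L1MB7, Lx8 and L2, as sequence from acetylated regions centred in 4 element types. Element ends were not known, so parts of a window, and its motifs, may lie outside the LINE element. Capitals mark matches on either strand to GAGGAA (core of the PU.1 site), TGANTCA (AP-1) and CACGTG (E-box of the lysosomal regulators TFEB and TFE3).
Gm43837 in L1M2, chr5:64377703-64378002, plus strand: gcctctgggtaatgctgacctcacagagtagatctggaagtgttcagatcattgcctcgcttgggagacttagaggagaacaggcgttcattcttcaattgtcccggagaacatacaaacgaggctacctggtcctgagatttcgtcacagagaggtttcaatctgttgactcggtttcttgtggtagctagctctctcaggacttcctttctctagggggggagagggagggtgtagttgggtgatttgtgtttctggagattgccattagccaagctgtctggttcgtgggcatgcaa
Gm41309 in L1MB7, chr15:38602237-38602536, minus strand: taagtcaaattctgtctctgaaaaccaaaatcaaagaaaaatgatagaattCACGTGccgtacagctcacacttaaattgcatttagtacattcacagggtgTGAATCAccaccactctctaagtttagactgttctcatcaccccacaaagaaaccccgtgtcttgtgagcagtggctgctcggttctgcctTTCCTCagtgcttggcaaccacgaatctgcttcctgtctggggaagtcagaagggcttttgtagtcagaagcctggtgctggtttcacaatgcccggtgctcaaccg
Gm41049 in Lx8, chr13:105311179-105311478, plus strand: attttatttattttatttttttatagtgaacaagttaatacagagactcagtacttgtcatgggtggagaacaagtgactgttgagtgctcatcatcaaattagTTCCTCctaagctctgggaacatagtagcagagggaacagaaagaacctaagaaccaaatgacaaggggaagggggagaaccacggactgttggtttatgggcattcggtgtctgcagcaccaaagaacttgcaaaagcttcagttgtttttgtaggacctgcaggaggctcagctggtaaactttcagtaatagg
Gm13657 in L2, chr2:75776615-75776914, plus strand: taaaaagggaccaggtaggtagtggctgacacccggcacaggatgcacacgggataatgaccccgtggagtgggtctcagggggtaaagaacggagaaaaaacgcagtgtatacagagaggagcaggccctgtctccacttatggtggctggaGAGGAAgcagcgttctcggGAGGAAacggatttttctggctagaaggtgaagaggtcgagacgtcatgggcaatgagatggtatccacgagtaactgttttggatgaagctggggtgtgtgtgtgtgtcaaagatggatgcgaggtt

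Among the 13 windows, 8 held GAGGAA, 2 held TGANTCA and 1, that of Gm41309, held CACGTG. Over 32544 distinct start windows of the same length, the shares were 28.1%, 7.79% and 7.17%. These are matches of letters in short windows, not binding sites. The L1M2 region of Gm43837 (chr5:64377533-64378333) had 463.15 and 637.71 scaled tags in WT and 448.04 and 514.46 in GrnKO, where scaled tags are tags per 10000000 in a library. WT and GrnKO overlapped on that scale. After scaling for composition it fell by 0.40 ± 0.12 on the log2 scale (SE, n = 2; limma, adjusted p = 0.0443), with an adjusted p of 0.0627 in edgeR. With the authors' scaling the change was -0.18 (adjusted p = 0.785). The L1MB7 region of Gm41309, with all 3 motifs, had 229.48 and 461.94 scaled tags in WT and 420.52 and 492.74 in GrnKO and did not pass the threshold (limma, adjusted p = 0.405). The Lx8 region of Gm41049 had 104.57 and 111.76 in WT and 180.75 and 167.74 in GrnKO (limma, adjusted p = 0.153), and the L2 region of Gm13657 had 122.65 and 99.01 in WT and 181.36 and 159.75 in GrnKO (limma, adjusted p = 0.284). In both, the GrnKO libraries were above the WT libraries without passing the threshold.

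Library quality bears on every result. The H3K27ac libraries held 15491642.5 to 20030832 tags and the inputs 4078179 to 14415969. WT replicate 1 stood apart, with 49.4% of its tags in the listed regions against 63.3% to 65.7% in the other 3. Composition scaling (TMM) gave it a factor of 0.825 against 1.04 to 1.08. Grn itself matched the labels, since the region at its start had 584.51 and 572.61 scaled tags in WT and 7.34 and 6.49 in GrnKO. Promoter regions of all 10 microglial marker genes on the list were present, with summed levels of 4086 to 5833 in WT and 4690 to 4799 in GrnKO. The region at the start of Tmem119, a microglial marker, fell in GrnKO (limma, adjusted p = 0.00922), and so did that of Siglech (adjusted p = 0.0385). Scaled tags of Siglech overlapped between genotypes (352.13 and 661.04 in WT, 333.66 and 431.83 in GrnKO). In edgeR 1 of the 10 marker promoters fell, and in DESeq2 3. Few neuronal, astrocyte and T cell marker genes had a promoter region (2 of 6, 3 of 5 and 1 of 4), and these summed to 0 to 16.5 in every library, and Olig2, of the oligodendrocyte lineage, was below 5 in each. The promoters of the myelin genes Mog and Mbp did carry signal: Mog had 44.54 and 49.37 scaled tags in WT and 29.67 and 27.21 in GrnKO (limma, adjusted p = 0.0896), and Mbp had 16.46 and 11.66 in WT and 33.03 and 28.46 in GrnKO (adjusted p = 0.247). Border macrophage promoters (4 of 6 genes had a region) summed to 111 to 159 in WT and 240 to 294 in GrnKO, where Ms4a7 rose, and endothelial promoters (2 of 5) to 94.2 to 108 in WT and 156 to 189 in GrnKO, where Flt1 rose. The other border macrophage promoters, of Mrc1, Pf4 and Cbr2, did not pass the threshold (log2 changes 0.54, -0.23 and -0.06; limma, adjusted p = 0.299, 0.817 and 0.957), nor did the other endothelial one, of Slc2a1 (-0.04; adjusted p = 0.945). The part of those cells in the results below was not tested.

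Most distal LINE regions carried little H3K27ac, and most did not differ between genotypes. Of the 3754, 2256 (60.1%) had enough tags to be tested, against 58.6% of the other distal autosomal regions and 62.4% of all regions. No H3K27ac tag was found in 25 regions, and 186 stayed below 3 tags in all 4 libraries. In GrnKO, 180 of the tested regions rose (7.98%) and 116 fell (5.14%), past an adjusted p of 0.05 (limma, Benjamini-Hochberg over 80728 regions). The background over all tested regions was 6.8% higher and 2.92% lower, 9.71% in either direction. Over the other distal regions it was 8.08% higher and 3.35% lower. The share that rose was thus near the distal background, and the share that fell was above it in this fit. Distal regions in LTR elements (8% higher, 3.46% lower) and SINE elements (7.97% higher, 3.35% lower) lay close to the other distal regions in both directions. The difference between LINE and other distal regions was not tested, since regions are not replicates.

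**Figure D1:**
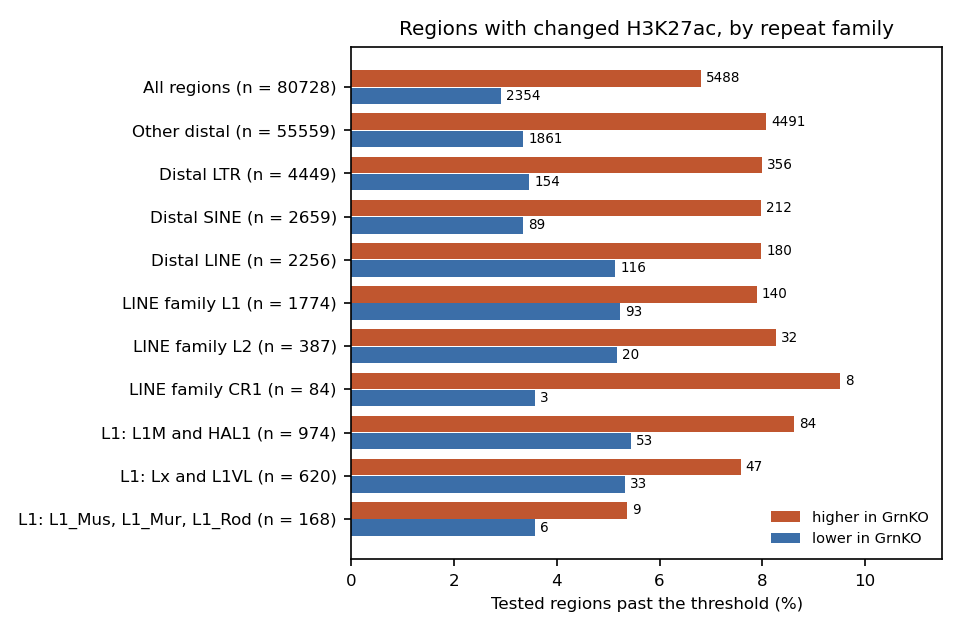
Share of tested regions (%, x axis) with higher (red) or lower (blue) H3K27ac in GrnKO, adjusted p under 0.05 by limma, with the number of regions at each bar and the number tested in brackets. Distal LINE regions rose in 7.98% and fell in 5.14%, against 8.08% and 3.35% of the other distal regions.

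The split between directions rested on how libraries were scaled. On the authors' scale, by library total only, 215 LINE regions were higher and 23 lower, so that 90.3% of the changed regions were higher in place of 60.8%, and the median change of all regions moved from -0.002 to 0.22 on the log2 scale. Shares on that scale were 9.53% higher and 1.02% lower for LINE regions, 9.6% and 0.463% for the other distal regions, and 8.15% and 0.412% over all regions. Single libraries also moved the counts: without WT replicate 1 they were 288 higher and 180 lower, without WT replicate 2 307 and 186, without GrnKO replicate 1 29 and 8, and without GrnKO replicate 2 45 and 17. The share of LINE regions that fell was then 7.98% without WT replicate 1 (other distal 6.31%, all regions 5.45%) and 8.24% without WT replicate 2 (6.26% and 5.86%). It was 0.355% without GrnKO replicate 1 (0.277% and 0.245%) and 0.754% without GrnKO replicate 2 (0.612% and 0.515%), so that it differed little from the other distal regions when either GrnKO library was left out. The share that rose was 12.8%, 13.6%, 1.29% and 1.99% in these 4 fits, beside 10.6%, 12%, 1.43% and 1.81% over all regions. None of the 296 changed regions reversed its sign under any of these settings, edgeR or DESeq2. With edgeR 166 were higher and 102 lower (all regions 6.08% and 2.5%), and 264 of the 268 were among the 296. With DESeq2 173 were higher and 121 lower (all regions 6.4% and 3.03%).

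The median LINE region moved little. Its log2 change was -0.02 (quartiles -0.50 and 0.60), beside -0.002 over all regions and 0.004 over the other distal regions. It was -0.03 without WT replicate 1 and 0.19 with the authors' scaling, on which the other distal regions had 0.22. LINE regions took 2.39% and 2.38% of the tags in listed regions in WT and 2.35% and 2.33% in GrnKO, a difference of -0.041 percentage points that 2 against 2 libraries cannot place below an exact two-sided permutation p of 0.33, the value found. In the inputs the share was 2.65% and 3.43% in WT and 3.20% and 3.37% in GrnKO, above the H3K27ac shares. As a share of the whole library the H3K27ac order turned, with 1.18% and 1.504% in WT and 1.53% and 1.53% in GrnKO (exact permutation p = 0.33).

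Regions that rose had larger changes and lower levels than regions that fell. The median change was 1.56 on the log2 scale among the 180 that rose and -0.90 among the 116 that fell. Beside these, all changed regions of the table had 1.49 and -0.85. At least a 2-fold change was seen in 152 that rose and 49 that fell. The median level over the 4 libraries, on the TMM scale, was 48.7 scaled tags for regions that rose, 110 for those that fell and 21.3 for the rest. Joined within 10 kb, the regions that rose formed 167 loci and those that fell 103, and no nearest gene had regions of both kinds.

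**Figure D2:**
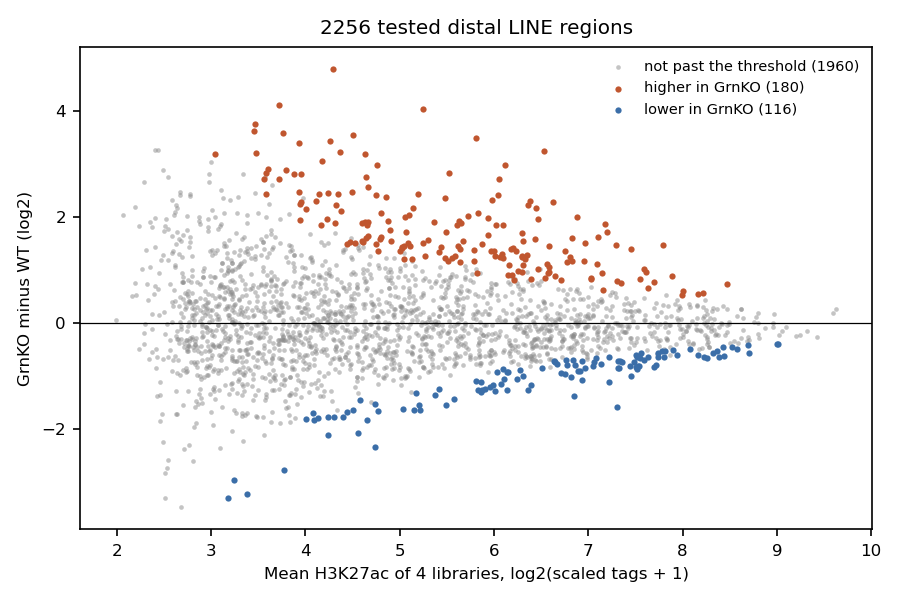
Log2 change (GrnKO minus WT, y axis) against mean H3K27ac over 4 libraries (x axis, log2 of TMM-scaled tags plus 1) for each of 2256 tested distal LINE regions. From the weakest to the strongest quartile of level, the 180 regions that rose (red) number 8, 52, 78 and 42, and the 116 that fell (blue) 3, 17, 31 and 65.

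After TMM scaling, losses were most frequent among the strongest regions, but not on the authors' scale. All tested distal regions were cut at the quartiles of mean level on the TMM scale, at 12.1, 31.0 and 90.6 scaled tags. In the top bin 65 of 467 LINE regions fell (13.9%) and 42 rose (8.99%), while 8.29% of the other distal regions there fell and 10.5% rose. In the lower bins, from weak to strong, 0.458%, 2.87% and 5.72% of LINE regions fell, against 0.217%, 1.23% and 3.59% of other distal regions. Without WT replicate 1 the top bin had 22.3% lower against 15.5%, and without WT replicate 2 it had 15% against 11.6%. Leaving out GrnKO replicate 1 cut the losses there to 0.857% against 0.579% (4 LINE regions lower and 13 higher), and leaving out GrnKO replicate 2 to 2.57% against 1.72% (12 lower and 15 higher), so that gains then outnumbered losses. With the authors' scaling the shares were 0.642% and 0.336%. On that scale the top bin thus had a smaller share of losses than all tested LINE regions (1.02%) and all other distal regions (0.463%). The top bin shares were higher for LINE regions in each of these fits, but no test compares them.

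**Figure D3:**
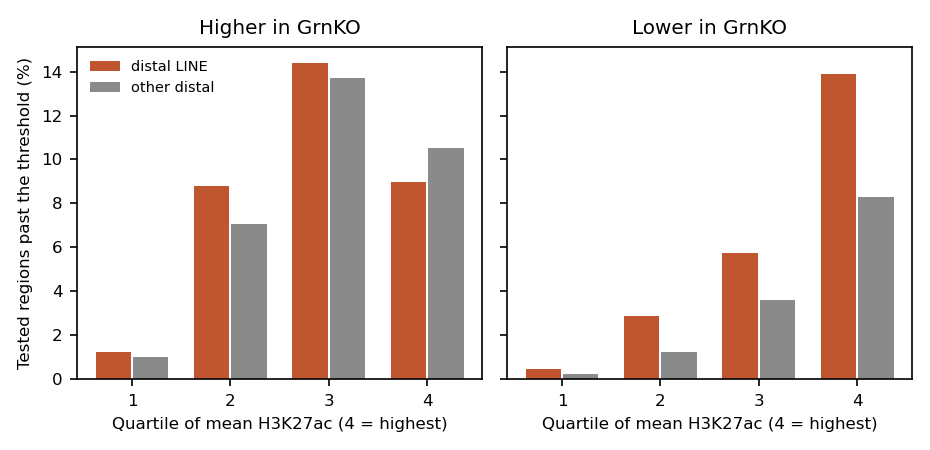
Share of tested regions (%, y axis) that were higher (left) or lower (right) in GrnKO, by quartile of mean H3K27ac (x axis), for distal LINE regions (red) and other distal regions (grey). In the top bin 13.9% of LINE regions and 8.29% of other distal regions were lower after TMM scaling.

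Shares also varied with position. Between genes 6.45% of LINE regions fell, against 3.96% of other distal regions, and in introns 4.09% against 3.02%. The intergenic shares were 1.29% against 0.529% with the authors' scaling, 0.595% against 0.322% without GrnKO replicate 1 and 0.794% against 0.769% without GrnKO replicate 2. In the main fit, gains became less frequent with distance in LINE regions and more frequent in other distal regions. Of LINE regions 1 to 10 kb from a start 9.41% rose (other distal 6.74%). At 10 to 50 kb 8.19% rose (other distal 8.65%), and beyond 50 kb 6.22% (other distal 9.07%). Other fits were not set beside this split. Among regions that overlapped no other, 100 of 1260 rose (7.94%, other distal 7.74%) and 54 fell (4.29%, other distal 2.84%).

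By family, 140 of 1774 tested L1 regions rose (7.89%) and 93 fell (5.24%). In L2, 32 of 387 rose (8.27%) and 20 fell (5.17%). Beside these, 6.8% of all regions and 8.08% of the other distal regions rose, near the shares of L1 and L2, while 2.92% and 3.35% fell. In CR1, 8 of 84 rose (9.52%) and 3 fell (3.57%), with 5 higher in edgeR. None of 11 tested RTE-X regions changed in limma, edgeR or DESeq2, while 2 were higher and 4 lower at an unadjusted p under 0.05. The 2 RTE-BovB regions were not tested. The authors' scaling left 21 L1, 2 L2 and 0 CR1 regions lower.

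Within L1, the classes are given by their counts, with no test between them. Of 974 L1M or HAL1 regions 84 rose (8.62%) and 53 fell (5.44%), and of 620 Lx or L1VL regions 47 rose (7.58%) and 33 fell (5.32%). Of 168 L1_Mus, L1_Mur or L1_Rod regions 9 rose (5.36%) and 6 fell (3.57%), which are few calls. Against the 8.08% higher and 3.35% lower of the other distal regions, no class is read as standing apart. Of 29 L1Md regions 11 were tested and 1 fell. The youngest copies are nearly identical to each other, and how the authors treated reads that match several places is not given in the sources used here, so L1Md values are uncertain.

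The L1Md region with the highest level was an L1Md_T copy 20249 bp upstream of Noxa1, which encodes an activator of an NADPH oxidase (chr2:25115054-25115854, intergenic). It had 76.49 and 94.12 scaled tags in WT and 38.23 and 51.17 in GrnKO. Both GrnKO libraries lay below both WT libraries, and the region fell by 1.15 ± 0.27 on the log2 scale (SE, n = 2; limma, adjusted p = 0.0113). With the authors' scaling the adjusted p was 0.0703. An L1Md_F2 copy near Mpc1, a mitochondrial pyruvate carrier gene, had 44.54 and 26.04 in WT and 65.45 and 77.38 in GrnKO (limma, adjusted p = 0.147, and 0.00142 without WT replicate 1). The L1Md regions near Magi1, Cacybp and Serpinb13 had adjusted p of 0.327 to 0.669. Over the 11 tested L1Md regions, 2 were higher and 2 lower at an unadjusted p under 0.05.

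Of the 5 element names with the most tested regions, Lx8 had 22 of 197 higher (11.2%) and 10 lower (5.08%), and L2 had 14 of 123 higher (11.4%) and 4 lower (3.25%). L2a had 9 of 120 higher (7.5%) and 7 lower (5.83%), Lx7 had 5 of 101 in each direction (4.95%), and L2b had 8 of 91 higher (8.79%) and 6 lower (6.59%). Over all tested regions the shares were 6.8% and 2.92%, and no test compares the names. L1M2, singled out after its values were seen, had 7 of 47 higher and 1 lower, with a median log2 change of 0.67 and 72.3% of its regions above 0. Its median was 0.44 to 0.67 when 1 library was left out or the replicate block was added. Its count of gains rested on single libraries: 1 without GrnKO replicate 1, 2 without GrnKO replicate 2, 12 without WT replicate 1 and 14 without WT replicate 2.

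The strongest gain by p was in an L2 fragment in intron 7 of 9 of Skp2, whose protein directs cell cycle inhibitors to degradation (chr15:9118364-9119164). It had 17.11 and 13.56 scaled tags in WT and 172.18 and 186.96 in GrnKO, so that both GrnKO libraries were far above WT. The gain was 3.25 ± 0.30 on the log2 scale (SE, n = 2; limma, adjusted p = 5.23e-06). The inputs of the 4 pools had 0, 7.49, 0 and 0 there.

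A second L2 fragment, in intron 1 of 13 of Mkl1 (now Mrtfa, a coactivator of serum response factor; chr15:81178538-81179338), had 28.08 and 32.55 scaled tags in WT and 181.66 and 170.24 in GrnKO. It rose by 2.28 ± 0.25 (SE; limma, adjusted p = 1.71e-05). The L2 fragment with the largest change among those named lay 9481 bp upstream of Ckap4, which encodes a protein of the endoplasmic reticulum (chr10:84542969-84543769). It had 1.29 and 6.24 in WT and 93.58 and 58.91 in GrnKO. WT replicate 1 was under the floor of 3 tags, and both GrnKO libraries were far above it (4.04 ± 0.55 on the log2 scale, SE; limma, adjusted p = 0.000133).

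Old L1 fragments made up most of the other leading gains, while L1 made up 1774 of the 2256 tested regions. An L1MC3 fragment 47609 bp upstream of Bcar3, which encodes an adaptor of integrin signalling (chr3:122371748-122372548), had 49.06 and 65.10 in WT and 251.09 and 239.63 in GrnKO (log2 change 1.87). An L1ME1 fragment near Ppp1r3b, a regulator of glycogen synthesis (chr8:35419831-35420631), had 10.65 and 16.82 in WT and 158.73 and 106.84 in GrnKO (2.97). Its input reached 35.29 in WT replicate 2, above that pool's H3K27ac value. An L1M1 fragment in intron 1 of 12 of Anxa4, a calcium-dependent membrane-binding protein (chr6:86778989-86779789), had 12.26 and 18.72 in WT and 105.82 and 141.53 in GrnKO (2.71).

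Further gains lay in L1MA9 fragments near Mir1928 (chr1:74200777-74201577; log2 change 2.29) and Map4k3, a kinase of the MAP kinase pathway (chr17:80775049-80775849; 2.32). The latter had 17.75 and 19.26 in WT and 122.94 and 102.84 in GrnKO. An L1_Rod fragment upstream of Osbpl8, a lipid transfer protein (chr10:111127680-111128480), had 55.19 and 67.81 in WT and 223.87 and 222.16 in GrnKO. An Lx5 fragment near 4930406D18Rik (chr3:100442307-100443107) had 70.04 and 82.19 in WT and 254.76 and 243.62 in GrnKO. Over these last 7 gains, adjusted p ran from 1.71e-05 to 9.19e-05 (limma).

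In CR1 the leading gain was an L3 fragment in intron 1 of 4 of Nceh1, an enzyme that frees cholesterol from its esters in macrophages (chr3:27193731-27194531). It had 48.09 and 81.10 scaled tags in WT and 254.14 and 229.15 in GrnKO and rose by 1.71 ± 0.21 on the log2 scale (SE; limma, adjusted p = 5.79e-05). An L3b fragment in intron 2 of 6 of Lrp11 had 0 and 1.09 in WT, under the floor, and 29.36 and 22.47 in GrnKO (limma, adjusted p = 0.00515). An L3 fragment 124585 bp from Maf, a transcription factor of macrophages (chr8:115581909-115582709), had 121.68 and 125.59 in WT and 272.19 and 242.63 in GrnKO (limma, adjusted p = 0.00643).

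**Figure D4:**
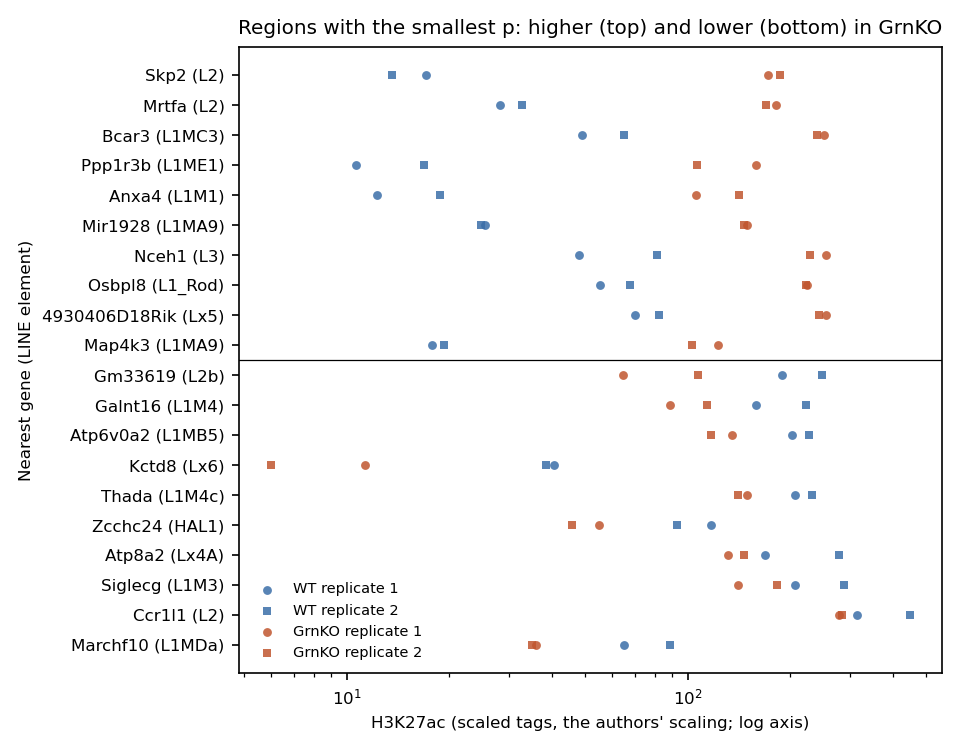
H3K27ac (scaled tags, log x axis) in each of 4 libraries for the 10 distal LINE regions with the smallest p among those that rose (above the line) and that fell (below), taken from regions past the threshold whose genotypes do not overlap, at most 1 per nearest gene. By that choice the GrnKO points (red) lie to the right of the WT points (blue) above the line and to their left below it.

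The leading loss was in an L2b fragment 5709 bp from Gm33619, a predicted gene (chr10:21192253-21193053). It had 188.81 and 248.19 scaled tags in WT and 64.84 and 107.58 in GrnKO, and it fell by 1.59 ± 0.23 on the log2 scale (SE; limma, adjusted p = 0.000195). An overlapping region with its centre in an Lx2B2 element had 126.84 and 184.45 in WT and 58.11 and 79.38 in GrnKO. These share tags and count as 1 locus.

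An L1M4 fragment in intron 6 of 14 of Galnt16, an enzyme that starts O-linked sugar chains (chr12:80580505-80581305), had 158.47 and 222.15 in WT and 89.00 and 113.82 in GrnKO (log2 change -1.12; limma, adjusted p = 0.00145). An L1MB5 fragment paired with Atp6v0a2, a subunit of the proton pump that acidifies lysosomes, lay in intron 13 of 18 of the neighbouring gene Tctn2 (chr5:124621169-124621969). It had 203.01 and 226.77 in WT and 134.57 and 117.07 in GrnKO (-0.99; limma, adjusted p = 0.00175, and 0.072 with the authors' scaling). An Lx6 fragment 594630 bp from Kctd8 had 40.67 and 38.52 in WT and 11.32 and 5.99 in GrnKO (-2.34), which was the largest fall among those named.

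An L1M3 fragment near Siglecg, an inhibitory receptor for sialic acids (chr7:43392182-43392982), had 206.89 and 286.98 in WT and 140.38 and 183.22 in GrnKO (log2 change -0.83; limma, adjusted p = 0.00597). An L2 fragment near the chemokine receptor gene Ccr1l1 (chr9:123984752-123985552) had 313.72 and 449.73 in WT and 277.39 and 283.31 in GrnKO (-0.65; limma, adjusted p = 0.00639). An L2c fragment near the neighbouring Ccr1 (chr9:123953337-123954137) had 484.45 and 599.46 in WT and 487.19 and 465.03 in GrnKO (-0.40; limma, adjusted p = 0.0353), with overlapping ranges. With the authors' scaling these 3 had adjusted p of 0.199, 0.402 and 0.779.

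The other leading losses lay near Thada (L1M4c, log2 change -0.82), Zcchc24 (HAL1, -1.27), Atp8a2, a phospholipid flippase (Lx4A, -0.87), Marchf10, a ubiquitin ligase whose symbol the table writes as a date (L1MDa, -1.30), and Fchsd2, a regulator of endocytosis (L2b, -0.67). Their adjusted p ran from 0.00561 to 0.00768 (limma). The 3 CR1 regions that fell were L3 fragments near 1700065L07Rik (-0.73), Stk17b, a kinase linked to cell death (-1.09), and Zyg11b, a subunit of a ubiquitin ligase (-1.83). The last had 17.43 and 31.19 in WT and 8.56 and 5.49 in GrnKO, and the input of WT replicate 1 had 49.04 there. The authors' scaling put the adjusted p above 0.05 for Thada, Atp8a2, Fchsd2 and all 3 of CR1.

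The 3 regions with the highest level in each of L1, L2 and CR1 were as follows. An Lx8 fragment near Slc7a15 had 524.48 and 836.00 in WT and 896.69 and 971.00 in GrnKO (limma, adjusted p = 0.166). L1 fragments near Marcks, a protein kinase C substrate, and Cd33, a sialic acid receptor, had adjusted p of 0.122 and 0.455. In L2 the strongest were near 4930406D18Rik (559.33 and 799.65 in WT, 819.01 and 963.51 in GrnKO) and Mir6367 (468.32 and 572.61, 540.71 and 495.24), with adjusted p of 0.346 and 0.253, and the Ccr1 region named above. In CR1 they were near Mapk3, Nf1 and Hps3, with adjusted p of 0.226 to 0.996. Of these 9 regions only the one near Ccr1 passed the threshold.

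LINE regions that changed often had a changed neighbour. Of 153 regions that rose and had a tested, non-overlapping neighbour within 10 kb, 99 (64.7%) had a neighbour that rose and 1 had a neighbour that fell. Of 94 that fell, 54 (57.4%) had a neighbour that fell and 0 had one that rose. For 97 of the 99 and 52 of the 54, such a neighbour was no LINE region. Among LINE regions that did not pass the threshold, 12.7% had a neighbour that rose and 10.4% one that fell. Other distal regions had like shares, 64.4% for gains and 50.6% for losses. Over 1838 pairs the change of a LINE region and that of its nearest neighbour correlated with Pearson's r = 0.49, and over 47266 pairs of other distal regions with r = 0.51. Pairs share libraries and may lie in the same acetylated domain, which was not tested.

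**Figure D5:**
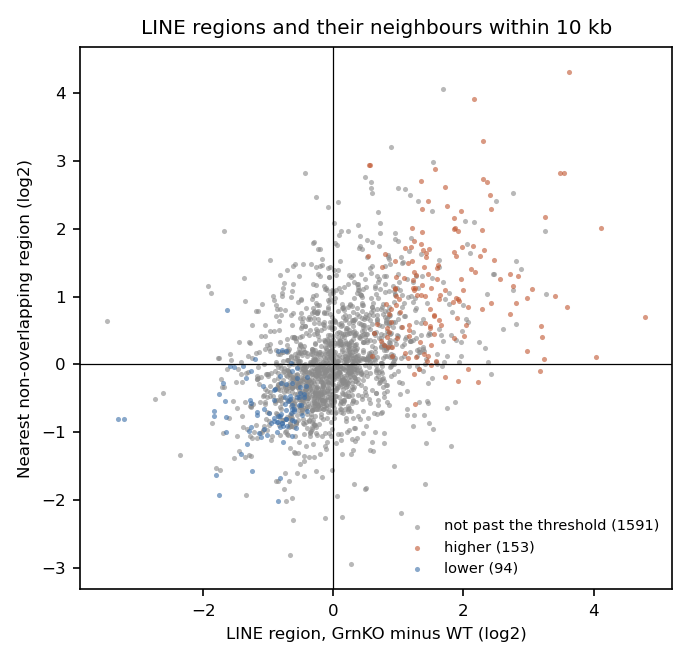
Log2 change of the nearest non-overlapping tested region within 10 kb (y axis) against that of each distal LINE region (x axis), both GrnKO minus WT. Neighbours of regions that rose (red) lie mostly above 0, with a median of 1.02, and those of regions that fell (blue) mostly below, with a median of -0.68.

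Input gives a rough view of background, limited by its depth. In 1190 of the 3754 regions (31.7%, other distal 30.1%) some input value exceeded every H3K27ac value. In the inputs 3 tags came to 2.08 to 7.36 scaled tags, so such an excess can rest on very few tags. Of the 291 of these regions that were tested 2 rose and 3 fell. Beside these, 6.8% of all tested regions rose and 2.92% fell, and 1.22% and 0.458% of LINE regions in the weakest quartile of level. Set against its own pool's input, with 1 added to both, H3K27ac had a median log2 ratio of 2.87 and 2.09 in WT and 1.87 and 2.70 in GrnKO, a difference of -0.19 (exact two-sided permutation p = 0.667). In the inputs of WT replicate 1 and GrnKO replicate 2, 91.3% and 81.9% of all listed regions had 0 tags. There the ratio is mostly that of H3K27ac to the added 1. The 2 genotypes overlapped, and the ratio moved with depth of the input, which was lowest in WT replicate 1 and GrnKO replicate 2; its part was not tested. It turned to 0.19 without WT replicate 1 and to 0.22 without GrnKO replicate 1. An L3 region near Ccdc80 stood out, with 486.74 scaled tags in the input of WT replicate 1, 0 to 4.86 in the other inputs and 5.49 to 13.23 in H3K27ac.

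LINE regions near genes of disease-associated microglia, the state seen around damage, rose in 5 of 16 tested and fell in 0 (0 also in edgeR and DESeq2, and 0 at an unadjusted p under 0.05), with a median log2 change of 0.67 beside -0.002 for all regions. The percentages to read this against are 6.8% higher and 2.92% lower. The 5 lay near Igf1, Cd300lf, Sulf2, Atp6v0d2 and Ctsd. The L1MC5a fragment 4124 bp upstream of Ctsd, the gene of the lysosomal protease cathepsin D (chr7:142391594-142392394), had 200.75 and 300.82 scaled tags in WT and 477.71 and 476.52 in GrnKO, and rose by 0.73 ± 0.14 on the log2 scale (SE; limma, adjusted p = 0.00267).

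The L1MA5 fragment 15553 bp upstream of Igf1, the growth factor gene (chr10:87842312-87843112), had 22.92 and 27.67 in WT and 124.17 and 94.35 in GrnKO and rose by 1.84 ± 0.29 (SE; limma, adjusted p = 0.000477). An L2b fragment in intron 1 of 21 of Sulf2, a heparan sulfate sulfatase, had 2.90 and 5.43 in WT and 25.38 and 27.21 in GrnKO (2.25; limma, adjusted p = 0.0217). The L2 fragment near Cd300lf, a lipid-binding receptor, had 14.20 and 10.04 in WT and 38.84 and 43.93 in GrnKO (1.49; limma, adjusted p = 0.0358). An L1MC3 fragment in Atp6v0d2, another proton pump subunit, had 89.08 and 119.08 in WT and 183.19 and 188.71 in GrnKO (log2 change 0.62). Its adjusted p was 0.0451 in limma, 0.0503 in edgeR and 0.0515 in limma with the authors' scaling. GrnKO was above WT with no overlap in all 5.

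Near lysosomal genes 2 of 24 rose, at Ctsd and Atp6v0d2, and 1 fell, at Atp6v0a2. Near homeostatic microglial genes 3 of 42 rose and 0 fell (6 at an unadjusted p under 0.05; 0 in edgeR and DESeq2). Beside the 6.8% higher and 2.92% lower over all regions, neither count of gains stands out. At the promoters of 37 homeostatic genes, 0 rose and 7 fell in limma (6 fell in edgeR and 8 in DESeq2). The 3 near homeostatic genes were the Maf region, an L3 fragment in Entpd1, which breaks down extracellular ATP (44.22 and 77.85 in WT, 122.03 and 148.77 in GrnKO), and an L2b fragment in intron 5 of 6 of Runx1, a blood cell transcription factor (0.65 and 2.98 in WT, 29.36 and 28.71 in GrnKO). Near microglial markers 0 of 11 changed in limma, edgeR or DESeq2, with a median log2 change of -0.49 and 3 lower at an unadjusted p under 0.05. Near border macrophage markers 2 of 4 rose, both at Ms4a7 (L1MA4, 28.73 and 34.18 in WT, 111.93 and 81.37 in GrnKO; L1VL4, 19.04 and 47.20 in WT, 89.30 and 71.89 in GrnKO). The Ms4a7 promoter moved with them, from 30.66 and 30.65 to 142.21 and 114.07. Of other list genes with a LINE gain nearby, the promoters of Igf1 and Cd300lf also rose (limma, adjusted p = 0.000145 and 0.00165). Those of Ctsd, Runx1, Maf and Entpd1 did not pass the threshold (limma, adjusted p = 0.111 to 0.952). That of Sulf2 was lower in GrnKO without passing (24.85 and 21.43 in WT, 15.60 and 7.99 in GrnKO, limma, adjusted p = 0.158). The second Ms4a7 region had an adjusted p of 0.0334 in limma and 0.061 in edgeR. No LINE region near genes of LINE silencing (2 tested), nucleic acid sensing (7) or the interferon response (2) passed the threshold in limma, edgeR or DESeq2, with 1 lower near a sensing gene at an unadjusted p under 0.05.

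Genes that silence LINEs, or sense the nucleic acids they make, were read at their promoters, beside a background of 6.8% higher and 2.92% lower over all tested regions. Of 31 tested promoter regions of silencing genes 1 rose and 0 fell in limma, with 2 and 1 at an unadjusted p under 0.05, and 0 in both directions in edgeR and DESeq2. The 1 was Dnmt3a, a DNA methyltransferase, with 92.95 and 187.98 in WT and 237.94 and 256.11 in GrnKO (0.67 ± 0.21 on the log2 scale, SE; limma, adjusted p = 0.0459). Trim28, a corepressor of retroelements, had 76.82 and 136.17 in WT and 142.52 and 103.59 in GrnKO (adjusted p = 0.97). Of 23 sensing genes 2 rose and 0 fell in limma, edgeR and DESeq2, with 3 lower at an unadjusted p under 0.05. Neither count of gains stands out from that background. The 2 were Pld3, a lysosomal nuclease (15.17 and 14.11 in WT, 52.30 and 49.67 in GrnKO; limma, adjusted p = 0.0164), and Rnaseh2b, a subunit of the enzyme that cuts RNA from DNA hybrids (21.95 and 31.19 in WT, 55.36 and 86.12 in GrnKO; adjusted p = 0.0324). Cgas, the DNA sensor, had 33.57 and 39.87 in WT and 36.70 and 43.68 in GrnKO (adjusted p = 0.902). Without either GrnKO library none of the 3 passed.

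At the distance threshold, the regions just inside were near Smpd3 (1004 bp from the start; 79.07 and 68.08 scaled tags in WT, 53.52 and 64.15 in GrnKO), Lair1 (1009 bp; 128.13 and 265.01, 153.53 and 182.22) and Bbs12 (1020 bp; 54.55 and 42.32, 86.24 and 76.63). Those just outside were near G3bp2 (987 bp; 0.65 and 6.51 in WT, 2.45 and 1.00 in GrnKO), Polr1a (960 bp; 2.90 and 1.90, 1.53 and 0.50) and Tmbim4 (919 bp; 4.84 and 5.15, 0.61 and 2.00).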

How the data were processed

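H3K27ac and input libraries of 4 pools were read from 1 table. Per the file headers, the authors deposited a signal, tags per region at a common library total of 10000000. The submitters' processing notes name Bowtie2, HOMER, DESeq2 and the build mm10, without roles; treatment of duplicate and multiply matching reads is not given in the sources used here. The regions are merged reproducible ATAC-seq peaks whose source list names other knockout lines, per the file headers. Multiplying by library totals gave whole read ends (2 per tag, tolerance 0.05) for 100% of values.

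From these, values were rescaled with TMM factors and tested with limma 3.58.1 (lmFit, eBayes with trend; R 4.3.3) on log2(value + 1), which understates changes of low regions. edgeR's filterByExpr with a minimum of 10 tags left 80728 regions, over which p was adjusted by Benjamini-Hochberg. Scaled tags printed per library are on the authors' scale. Mean levels over the 4 libraries, their medians and quartile cuts, and log2 changes are on the TMM scale. edgeR 4.0.16 and DESeq2 1.42.0 on recovered read ends, 2 per tag, were alternatives. Others were other scalings, pseudocounts and filters, leaving out replicates, and a block. Tests were checked on simulated data. Single values per library were compared by exact two-sided permutation. Replicates are pools of different mice; n = 2 per genotype limits precision. Floors (3 tags, at most 1.94 scaled tags in H3K27ac libraries) cover counting error only, as reads carry no molecular identifiers.

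Named regions were the 10 with the smallest p in each direction among those past the threshold with no overlap of genotypes, at most 1 per nearest gene; per family the 3 strongest by level and the 3 by p in each direction; the 5 strongest L1Md; per gene list the 3 by p in each direction; and 3 each side of the distance limit. Element names were the 5 with the most tested members, and promoter genes those past the threshold. Anything else was named after its values were seen. Members and lists were chosen with earlier results of these data known. RefSeq matched 3752 of 3754 regions by gene identifier, for host introns and current symbols.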

Additional observations from a re-analysis of the deposited data

How the results depend on the processing

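Same-numbered replicates are different mice and did not deviate together (correlation of deviations 0.034 over all tested regions), so the numbers do not pair the samples. With a replicate block 241 LINE regions were higher (10.7%) and 160 lower (7.09%). Beside these, 9.17% and 4.94% of all regions were higher and lower, and 10.7% and 5.64% of the other distal regions. In that fit CR1 had 13 and 6, RTE had 2 lower, and the silencing and sensing promoters had 1 lower. With the authors' scaling 23 regions were lower (L1 21, L2 2, CR1 0) and the median change was 0.193. Without the filter (any region with a read) 61 were lower (L1 50, L2 9), 1.64% beside 0.868% of all regions. A 2-fold minimum left 49 lower (L1 42, L2 5), and regions without overlap gave 100 higher and 54 lower (L1 78 and 45, L2 17 and 7, CR1 5 higher), by fewer regions. edgeR gave CR1 5 higher, and pseudocount 5 gave RTE 1 lower.

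Leaving out 1 replicate at a time gave 29 to 307 higher and 8 to 186 lower in all (L1 21 to 242 higher and 7 to 139 lower, L2 7 to 52 and 1 to 40, CR1 1 to 12 and 0 to 7, RTE 0 to 1 and 0 to 4), a median of -0.066 to 0.034, and 0 to 4 higher and 0 to 3 lower promoters. The cause was not tested. A dropped arm leaves 1 sample, whose spread is assumed to match the other group. With the library total as denominator the share of tags in LINE regions was 0.186 points higher in GrnKO, and the ratio to input ran from -0.608 to 0.220 with 1 replicate left out (0.194 without WT replicate 1), settings added after seeing the data.

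Of 693 values for 63 named regions under alternatives, 598 kept direction and side of the threshold, 70 lost it, 12 passed it and 13 reversed, all 13 in regions not past the threshold. With the authors' scaling Cd33 reversed to 0.071, Mapk3 to 0.224, Hps3 to 0.202 and Ube2v1 to 0.123. Without the filter Mapk3 reversed to 0.040 and Hps3 to 0.018. With 1 replicate left out, reversals included, Mapk3 ran from -0.213 to 0.211 (0.0025 without GrnKO replicate 1), Hps3 from -0.167 to 0.122, Serpinb13 from -0.050 to 0.787, Asgr2 from -0.962 to 0.035, 2310043O21Rik from -0.084 to 0.599 and Slc25a33 from -0.714 to 0.109. Depth limits the weak regions: 186 stayed below 3 tags in all H3K27ac libraries.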

Other observations

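LINE regions that the autosomal and distance limits leave out were few. On chromosome X there were 139, of which 71 were tested, 3 higher and 4 lower in GrnKO (limma), with a median log2 change of 0.02. On Y there were 2, and 1 was tested. Autosomal LINE regions within 1000 bp of a start numbered 29, of which 19 were tested, 1 higher and 1 lower. Over all 3927 LINE regions of the table, 185 of 2349 tested were higher (7.88%) and 121 lower (5.15%). The background for all these counts, over all tested regions, was 6.8% higher and 2.92% lower.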
